A study of Mus musculus with 7 samples.

Results

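Tag-rich MyoD peaks are the regions of the mouse genome where chromatin immunoprecipitation (ChIP) of MyoD in myotubes recovered the most sequence tags. They were the peaks on chromosomes 1 to 19 that held 40 tags or more, and 564 of the 10620 peaks on these chromosomes met this minimum. They were chosen by their tag count, which is part of the peak call, so their tags, widths, fold enrichments and false discovery rates are given as descriptions. The MyoD library came from primary myotubes, made by keeping confluent primary myoblasts for 48 hours in medium with 5% horse serum. The myoblasts descended from sorted satellite cells of mice aged 4 to 6 weeks, with no strain, genotype or number of animals in the labels. RNA was sequenced from growing primary myoblasts carrying an empty retroviral vector and from 48-hour myotubes carrying the same vector, with 1 library for each. The labels do not say that the cells of the MyoD library carried a vector, and they credit that library to an earlier deposit. The 4 histone ChIP samples of the 7 in the series were not analysed here.

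MyoD is a basic helix-loop-helix transcription factor that commits cells to skeletal muscle. As a dimer with an E protein it binds the E-box, a short motif written CANNTG, with CAGCTG and CAGGTG among its preferred forms. It binds at many places in the genome and activates myogenic factors, contractile proteins and the acetylcholine receptor of the muscle membrane. In a ChIP peak list the tag count reflects how much DNA was recovered over a region, which depends on binding, on the width of the called region and on the local background.

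The promoters shown first belong to the genes with the richest peaks at a start site. A gene's start was taken as the end of its locus given by its strand, for 2609 tested genes whose locus was shared with no other tested gene and matched RefSeq in length within 500 bp. Of the 564 tag-rich peaks, 21 had a summit within 1 kb of such a start. The 4 genes with the most tags there were Chrna1 and Chrng, which encode the alpha and gamma subunits of the muscle acetylcholine receptor, Hes6, a basic helix-loop-helix regulator, and Atf4, a stress-response transcription factor. The 250 bases before the RefSeq start of each (build GRCm38.p6) are given 5′ to 3′ on the gene's own strand, with every CANNTG in capitals.
Chrna1: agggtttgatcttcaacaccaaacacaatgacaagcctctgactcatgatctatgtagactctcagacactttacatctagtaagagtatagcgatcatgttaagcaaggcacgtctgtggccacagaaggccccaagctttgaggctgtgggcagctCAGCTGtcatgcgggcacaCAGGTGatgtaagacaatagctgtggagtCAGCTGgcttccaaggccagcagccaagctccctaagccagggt
Chrng: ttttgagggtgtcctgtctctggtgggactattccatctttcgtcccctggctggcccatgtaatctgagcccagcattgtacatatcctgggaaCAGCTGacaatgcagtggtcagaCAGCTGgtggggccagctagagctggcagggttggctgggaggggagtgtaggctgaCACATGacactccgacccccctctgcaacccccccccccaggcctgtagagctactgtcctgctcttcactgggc
Hes6: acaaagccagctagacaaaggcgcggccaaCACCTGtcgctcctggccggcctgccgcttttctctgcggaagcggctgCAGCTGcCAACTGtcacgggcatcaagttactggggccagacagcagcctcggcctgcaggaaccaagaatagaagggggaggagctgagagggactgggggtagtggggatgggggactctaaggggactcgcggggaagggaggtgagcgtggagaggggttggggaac
Atf4: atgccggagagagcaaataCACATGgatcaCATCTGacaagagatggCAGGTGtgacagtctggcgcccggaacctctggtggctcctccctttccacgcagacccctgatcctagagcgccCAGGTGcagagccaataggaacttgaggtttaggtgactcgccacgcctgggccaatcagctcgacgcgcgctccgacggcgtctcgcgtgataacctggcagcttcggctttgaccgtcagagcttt
The stretches lie at chr2:73580339-73580588 on the minus strand, chr1:87205561-87205810 on the plus strand, chr1:91414039-91414288 on the minus strand and chr15:80254934-80255183 on the plus strand.

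In the Chrna1 stretch the 3 E-boxes began at -92, -73 and -44 from the start, and the outer 2 read CAGCTG. In the Chrng stretch 2 CAGCTG motifs began at -155 and -132. The Chrna1 peak had its summit 93 bp before the locus start and the Chrng peak 149 bp before it, in mm9, the build of the peak list. The Atf4 summit lay 214 bp before the start. For Hes6, the peak with 70 tags had its summit 900 bp inside the locus and ended before reaching the start. A further Hes6 peak, with 55 tags, had its summit 176 bp before the start. The Hes6 stretch held 1 CACCTG, 1 CAGCTG and 1 CAACTG, and that of Atf4 held 2 CAGGTG but no CAGCTG. Builds were not converted, so these motifs and the summits were not set against each other base by base, and the sequence inside the peaks themselves was not analysed here.

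Across the 21 genes with a tag-rich summit at the start, the 300-base RefSeq window from 250 bases before to 50 after the start held CAGCTG in 11 (52.4%, exact 95% interval 29.8 to 74.3). The same window held it in 58 of 273 genes (21.2%, 16.5 to 26.6) whose peaks at the start all had fewer than 40 tags, in 298 of 2315 matched genes (12.9%) with no peak there, and in 5355 of all 32851 promoter windows (16.3%). For CAGGTG, counted together with its reverse complement CACCTG, the 4 shares in the same order were 33.3%, 16.8%, 15.4% and 20.2%. For any CANNTG, which includes both of these, they were 85.7%, 68.1%, 61.2% and 72.3%. The share with CAGCTG at the tag-rich starts rested on 21 promoters, and a motif in a window is a description and not a bound site.

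Tag-rich peaks were wider and denser than the rest. Their median width was 893 bp (range 256 to 4586), against 413 bp (110 to 1376) for the 10056 peaks with fewer tags. Their median density was 5.40 tags per 100 bp (range 2.66 to 32.4), against 3.22 (1.34 to 15.98). Tags and width moved together, with a Spearman rank correlation of 0.79 over all 10620 peaks of this 1 library and 0.38 among the 564, given as descriptions. Tags were unevenly spread: 325 of the 564 held 40 to 49 tags, 115 held 50 to 59, and 9 held 100 or more. These 5.31% of the peaks held 16.4% of the tags found in peaks.

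Many tags did not go with a high fold enrichment, the ratio of tags to the local background in the authors' call. The median fold was 13.3 (range 3.82 to 79.6) for tag-rich peaks and 15.4 (3.94 to 87.2) for the others, and 32 of the 564 were among the 564 peaks of highest fold. All 11 tag-rich peaks wider than 2000 bp had a fold below 11. A false discovery rate of 5% or less was listed by the authors for 325 of the 564 (57.6%) and for 17.1% of the other peaks, but this rate did not follow their p-value in order. The peak inside Purb, with 80 tags and 34.1-fold enrichment, was listed at 100%. Among peaks named below, that of 105 tags inside Olfml2b was listed at 50% and that of 78 tags inside 4831426I19Rik at 40%. A rate of 25% or less was listed for 558 of the 564.

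The 40-tag minimum fell within a continuous range. An exact Poisson 95% interval for a count of 40 runs from 28.6 to 54.5, and it covers counting error only. The 86 peaks with 40 or 41 tags had a median width of 786.5 bp and a median fold of 13.4. The 97 peaks with 38 or 39 tags, just outside, had a median width of 765 bp and a median fold of 15.2. Summits lay within 10 kb of a tested gene locus for 68.6% of the former and 79.4% of the latter.

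**Figure D1:**
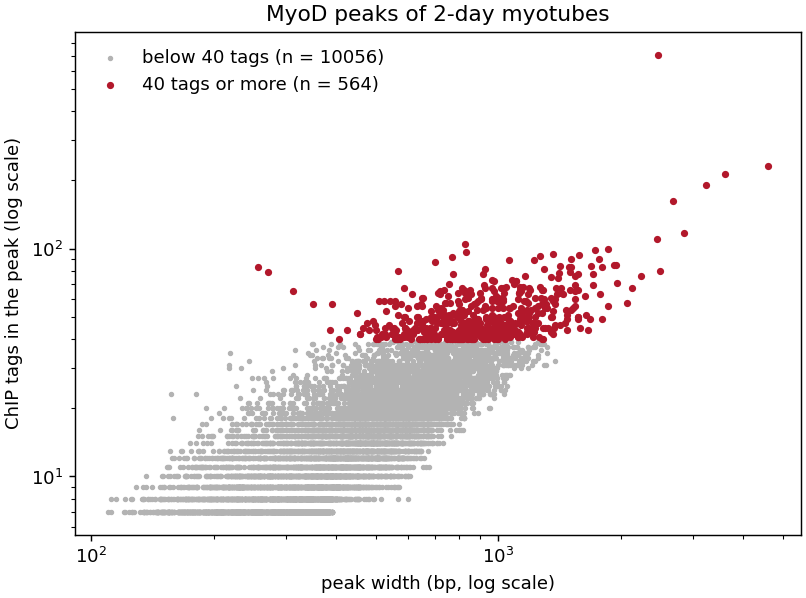
Tags in each MyoD peak against its width in bp, both on log scales, with 1 point per peak. The 564 peaks with 40 tags or more (red) lie toward greater width than the 10056 others (grey), and the peak at Myod1, with 707 tags, stands above all of them.

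By tags, the richest peak lay on the gene for MyoD itself. The peak at chr7:53631485-53633948 (mm9) held 707 tags over 2464 bp, 10.3-fold over background, and was the only tag-rich peak listed at a false discovery rate of 0. Its Poisson interval of 656 to 761 tags covers counting error only, and the next count was 231. It covered 80.4% of the 2619-bp Myod1 locus, with the summit 831 bp from the locus end with the higher coordinate. Below the gene 3 more tag-rich peaks, with 59, 70 and 67 tags, had summits 23067, 26113 and 27532 bp from the locus, and 1 with 41 tags lay 59286 bp away. In FPKM, fragments scaled to transcript length and to library size, Myod1 was at 895 in myoblasts and 293 in myotubes. The authors' deposited table did not call the difference (log2 fold change -1.61, SE 0.83, q = 0.154).

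The next 6 peaks by tags held 110 to 231. The second, chr8:126415781-126420366, was the widest, with 231 tags over 4586 bp. It lay in a 4435-kb locus that the expression table merges over 70 tested genes, among them Acta1, the skeletal actin gene, so a nearest gene cannot be given. The third, chr1:136089489-136093091, held 212 tags inside the locus shared by Mybph, a myosin-binding protein, and Adora1, an adenosine receptor. Its summit was also 6107 bp from Chi3l1, a chitinase-like secreted protein. Mybph was at 105 FPKM in myoblasts against 2449 in myotubes and Chi3l1 at 5.53 against 135, both called higher in the authors' deposited table. A further tag-rich peak of 97 tags lay 10117 bp beyond the other end of the Mybph and Adora1 locus.

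The fourth peak, chr1:20660542-20663783 with 190 tags, stood by a pair of muscle microRNA genes. Its summit was 7641 bp below the locus of Mir206 and 11400 bp below that of Mir133b. These microRNAs act in muscle differentiation, and their mature RNAs (RefSeq, GRCm38.p6) are shown with the seed, bases 2 to 8, in capitals.
miR-206-5p: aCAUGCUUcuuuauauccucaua
miR-206-3p: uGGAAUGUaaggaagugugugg
miR-133b-5p: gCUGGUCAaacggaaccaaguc
miR-133b-3p: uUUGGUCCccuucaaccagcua
The 4 seeds differ from each other. In the authors' deposited table Mir133b, at 183 FPKM in myoblasts against 264 in myotubes, had no call, while Mir206 was listed at 0 in both and was not tested. Values for transcripts this short are not measures of mature microRNA. Another tag-rich peak, with 66 tags, lay 45291 bp below Mir206.

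The fifth peak, chr2:113876799-113879488, held 162 tags inside the locus that Actc1, the cardiac actin gene expressed in developing skeletal muscle, shares with C130080G10Rik. Actc1 went from 279.5 FPKM in myoblasts to 6148 in myotubes, called higher in the authors' deposited table (log2 fold change 4.46, SE 0.66, q = 1.22e-09). Actin genes are close copies of each other, so reads may be split among them. The sixth, with 117 tags, lay 5303 bp from Tnrc18, at 18.7 and 11.9 FPKM. The seventh, with 110 tags, lay inside Nctc1, a noncoding RNA gene of muscle and mesoderm. Nctc1 was at 1.27 and 6.94 FPKM, a higher call in the authors' deposited table.

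**Figure D2:**
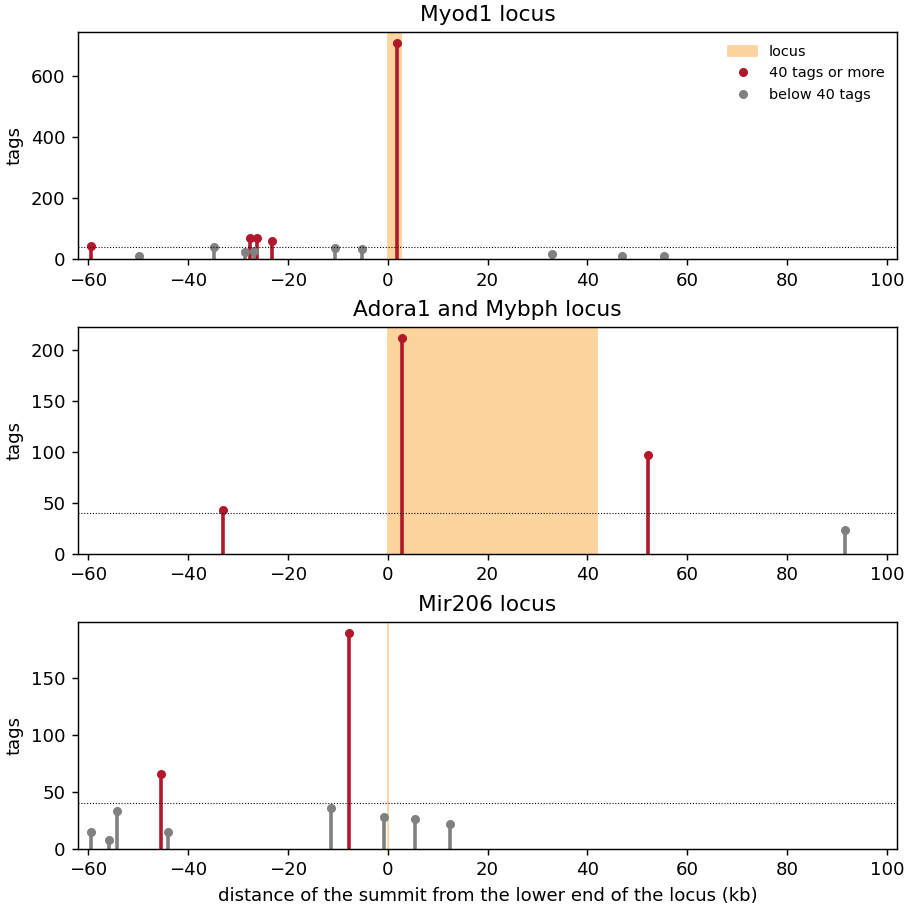
Tags of every MyoD peak within 60 kb of 3 loci, plotted at the distance in kb of the summit from the lower end of the locus (shaded). Red lines are peaks with 40 tags or more and grey lines those with fewer, and the 707 tags on Myod1, 212 in the Adora1 and Mybph locus and 190 below Mir206 are the highest in each panel.

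The other members of the 20 with most tags were mostly at genes that were not called. Olfml2b, an extracellular matrix protein, held a peak of 105 tags over 829 bp and was at 33.9 and 13.6 FPKM. Plec, which encodes the cytoskeletal linker plectin and shares its locus with Parp10, held 100 tags and was at 155 and 158 FPKM. Trim72, a membrane-repair protein of muscle, held 90 tags and went from 15.1 to 224 FPKM, called higher in the authors' deposited table (log2 fold change 3.88, SE 0.70, q = 8.88e-07). Not called in the authors' deposited table were also the nearest genes Chrna1 (99 tags), Traf4 (95), 2210404J11Rik (94, at 130943 bp), Gapdh (93), Lmnb2 (92), Pisd-ps2 (90), Shb (89) and Rin3 (89). The value of Gapdh, at 47.8 and 84.2 FPKM, is uncertain, since many processed pseudogenes copy it. Rhobtb1 shares its locus with A930033H14Rik, and the peak there held 87 tags.

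Density picked out another set of peaks. Of the 10 with most tags per bp, Myod1 was the third, with 28.7 tags per 100 bp. Above it stood a 256-bp peak with 83 tags, 24232 bp from Mrpl11, a mitochondrial ribosomal protein gene, and a 271-bp peak with 79 tags, 57395 bp from Arhgap8. Their folds, 3.82 and 6.30, were among the lowest of the 564. After Myod1 came peaks near BC018242 (65 tags in 312 bp, 5.28-fold), Ube2d1 (57 in 351 bp, 15.6-fold) and Garnl3 (57 in 391 bp, 7.33-fold), and then Purb, Olfml2b, Rhobtb1 and Lmnb2. So 5 of the 6 tag-rich peaks narrower than 400 bp were among the 10 densest, and 4 of these 5 had folds below 8.

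Fold enrichment gave yet another order. The highest among tag-rich peaks was 79.6-fold, from 44 tags inside Gpr155, a transporter-like membrane protein gene. It was followed by 76.6-fold from 40 tags, 95763 bp from Gap43, a growth-cone protein gene, 63.0-fold from 44 tags inside Hmcn2, a hemicentin, and 61.7-fold from 57 tags inside Numb, an inhibitor of Notch. In the authors' deposited table Gpr155, at 2.34 and 11.6 FPKM, was called higher and Hmcn2, at 6.45 and 1.31, lower. Gap43 and Numb were not called in the authors' deposited table. None of these 4 was among the 20 with most tags.

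Tag-rich peaks were spread over 18 of the 19 autosomes. Chromosome 11 held 55, chromosome 2 held 52 and chromosome 7 held 48. Chromosome 14 held none: its richest peak had 35 tags, and it had 168 peaks in all against 277 to 900 on every other autosome. Taking 3 counts as the limit that a count of 0 allows, its share is at most 1.79% of 168. The X chromosome, which lies outside the rule, had 136 peaks, with at most 39 tags.

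Most tag-rich peaks stood apart from each other. The median distance from a member to the next was 291720 bp, and 73 of the 564 lay within 10 kb of another. Another peak of any tag count lay within 10 kb for 47.9% of tag-rich peaks and for 28.5% of the others. When summits less than 20 kb apart were joined, 9 groups of 3 or more tag-rich peaks remained, holding 28 in all. The largest was 4 peaks over 27515 bp inside 4831426I19Rik on chromosome 12, with 42 to 78 tags. The others included the 3 peaks below Myod1, 3 at Gapdh and Nop2, 3 at Hes6 and Ilkap, 3 at the locus of Mb, the myoglobin gene, and Apol6, and 3 inside Bicd2.

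Tested genes with an unshared locus and at least 3 tag-rich summits in it or within 10 kb numbered 4. They were 4831426I19Rik, Gm16197, Midn, which encodes the nuclear protein midnolin, and Bicd2, a dynein adaptor. Bicd2 went from 41.1 FPKM in myoblasts to 111 in myotubes, called higher in the authors' deposited table (log2 fold change 1.44, SE 0.35, q = 0.000596). By the authors' deposited table, the gene 4831426I19Rik, at 14.5 and 4.90, was lower (log2 fold change -1.56, SE 0.41, q = 0.00130), and Gm16197 and Midn had no call.

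Summits of 332 of the 564 (58.9%, exact 95% interval 54.7 to 63.0) lay inside a tested gene locus, and 430 (76.2%, 72.5 to 79.7) lay inside or within 10 kb. The corresponding shares of the other peaks were 53.1% (52.1 to 54.1) and 66.6% (65.7 to 67.5). Tested loci cover 27.7% of the span of these chromosomes up to their last locus. Summits over 100 kb from any tested locus made up 5.50% of tag-rich peaks and 12.1% of the others. These intervals cover counting error only, and no test of the difference was run. Where a single tested gene held the nearest locus, the summit was within 5 kb of one of its ends for 161 of 422 tag-rich peaks (38.2%, 33.5 to 43.0) and 23.5% (22.5 to 24.4) of the others.

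**Figure D3:**
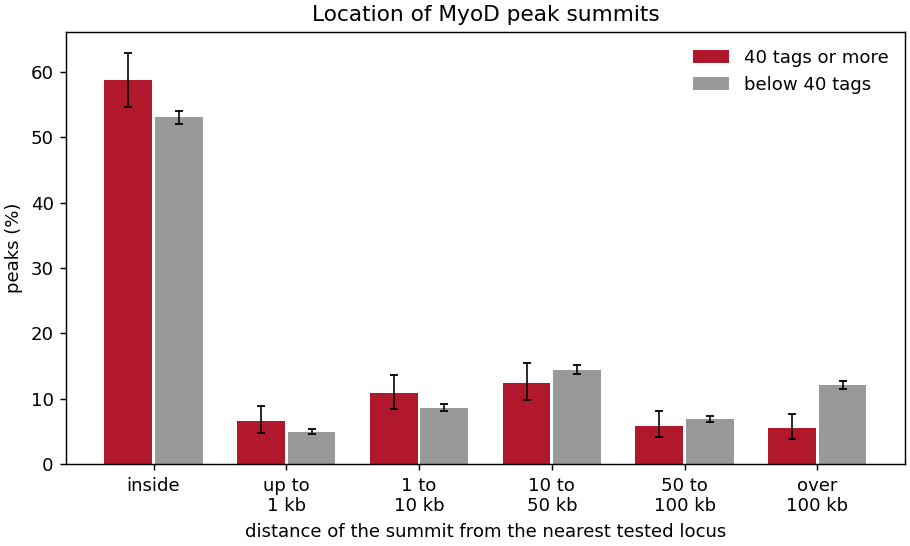
Share of peaks in percent by the distance of the summit from the nearest tested gene locus, for peaks with 40 tags or more (red, n = 564) and for the others (grey, n = 10056). Bars start at 0 and error bars are exact 95% binomial intervals for counting error; 58.9% of tag-rich summits lie inside a locus and 5.50% over 100 kb away.

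The genes nearest to tag-rich peaks were more often called higher in myotubes than tested genes at large. The nearest genes, with every gene of a shared locus counted, numbered 744, and the authors' deposited table called 118 of them (15.9%) higher and 100 (13.4%) lower. Over all 15966 tested genes the same calls made up 6.52% and 17.3%. For the 365 nearest genes with an unshared locus, the authors' deposited table called 68 (18.6%, exact interval 14.8 to 23.0) higher and 51 (13.97%, 10.6 to 17.96) lower, beside 6.91% and 17.8% of all 11115 tested genes with unshared loci. Each condition had 1 library, so these calls have no replicate check.

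The whole table leaned toward lower values in myotubes, with a median log2 fold change of -0.41 over 15416 tested genes. After the authors' deposited table was centred on that median, 160 of 714 nearest genes (22.4%) were higher and 67 (9.38%) lower, beside 10.2% and 10.3% of the tested genes. Among those with unshared loci, 90 of 361 (24.9%) were then higher and 37 (10.2%) lower. The centred shares of all tested genes with unshared loci were not computed. For all nearest genes, the higher share exceeded that of the table under both scalings. The median log2 ratio of the 720 nearest genes with a mean of at least 1 FPKM, computed with 1 FPKM added to each value, was 0.01, and that of all tested genes with that mean was -0.37.

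Calls changed with the number of tags. From peaks of 7 to 9 tags through 10 to 14, 15 to 24 and 25 to 39, the share of unshared nearest genes called higher in the authors' deposited table was 8.26%, 9.81%, 11.6% and 16.5%. It was 19% (57 of 300 genes, 14.7 to 23.9) for 40 to 59 tags and 18.8% (11.2 to 28.8) for 60 or more. The share called lower in the authors' deposited table went the other way, from 21.0% at 7 to 9 tags to 14.7% at 40 to 59 and 9.41% (4.15 to 17.7, 8 of 85 genes) at 60 or more. A gene can be nearest to peaks in several of these classes, and no test of a trend was run. Expression moved with them too: the median of these genes in myoblasts was 17.0 FPKM in the lowest class, 31.1 for 40 to 59 tags and 33.9 for 60 or more. The part of expression level in the calls was not tested.

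**Figure D4:**
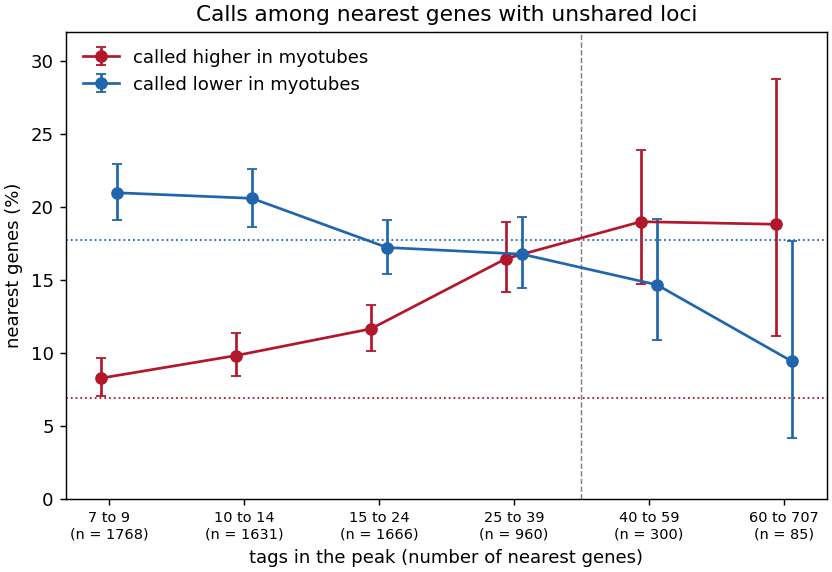
Percent of nearest genes with unshared loci called higher (red) and lower (blue) in myotubes in the authors' deposited table, by the number of tags in the peak, with the number of genes under each class. Error bars are exact 95% binomial intervals, dotted lines are the shares among all tested genes with unshared loci (6.91% and 17.8%), and the dashed line marks the 40-tag minimum.

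Calls also differed with position. Of 199 unshared genes with a tag-rich summit inside the locus, the authors' deposited table called 49 (24.6%, 18.8 to 31.2) higher and 25 (12.6%) lower. Of 181 with the summit outside, it called 22 (12.2%, 7.78 to 17.8) higher and 27 (14.9%) lower. The groups overlap within the 365 unshared nearest genes, since a gene nearest to several peaks can be in both. Where the summit was over 50 kb away, 4 of 49 genes (8.16%, 2.27 to 19.6) were higher in the authors' deposited table, beside 6.91% of all tested genes with unshared loci. Only 1 of the 744 nearest genes was below 1 FPKM in both conditions, beside 119 of the 15966 tested genes. Nearest genes were taken from tested genes only, so these counts do not show how often an untested gene lay closer.

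**Figure D5:**
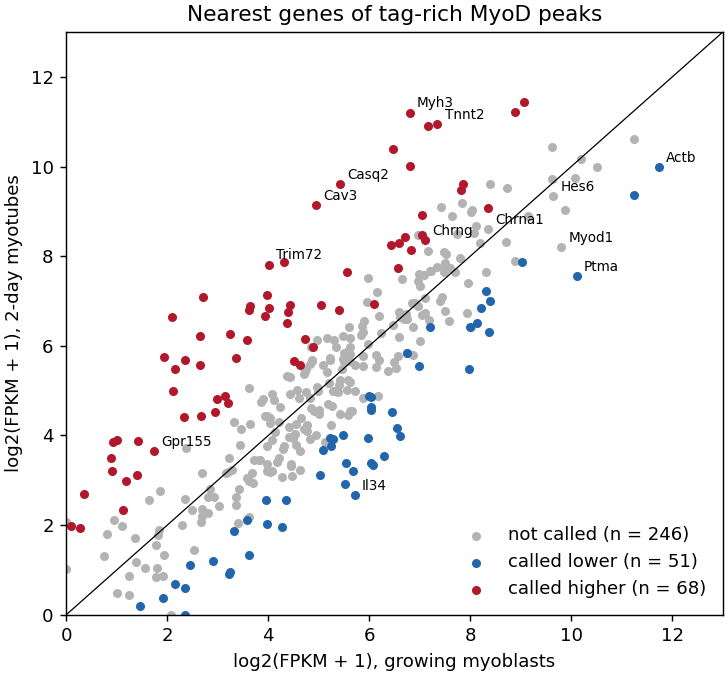
Expression of the 365 unshared nearest genes of tag-rich peaks, as log2(FPKM + 1) in growing myoblasts and in 2-day myotubes, with 1 library each. Points above the diagonal are higher in myotubes, and colours give the authors' calls, 68 higher and 51 lower.

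Seen from the genes, 725 of 15068 tested autosomal genes (4.81%) had a tag-rich summit in the locus or within 10 kb, and 351 of the 10387 with unshared loci (3.38%). Among gene lists chosen with results of these data known, the share ran from 0 of 18 genes of the dystrophin complex to 6 of 15 (40%) at the neuromuscular junction, and no list was tested against the rest. Of the 15 junction genes, 6 had one, and 5 of the 13 with unshared loci. The acetylcholine receptor subunits among them were Chrna1 (summit 93 bp from the locus, 99 tags), Chrng (149 bp, 83 tags), Chrnd (38 bp, 42 tags) and Chrnb1 (4 bp inside the locus end, 43 tags). Rapsn, which clusters the receptor, had a summit 19 bp from its locus with 43 tags and another 7021 bp away with 41. Dok7, which activates the kinase of the synapse, had a summit 1588 bp from its locus with 46 tags.

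These 6 junction genes were expressed in both conditions. Chrna1 was at 327 FPKM in myoblasts and 387 in myotubes, Chrnb1 at 181 and 215, Chrnd at 99.3 and 179, Rapsn at 95.1 and 122 and Dok7 at 38.4 and 69.4. Chrng, the subunit of the fetal receptor, was at 137 and 327. It was the only one of the 6 called in the authors' deposited table (log2 fold change 1.26, SE 0.37, q = 0.00494).

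Of 52 tested sarcomere genes 13 had a tag-rich peak in or near the locus, Acta1 only through the 4435-kb merged locus, and of the 38 with unshared loci 5 did. The authors' deposited table called 12 of these 13 higher and 0 lower, and of the remaining 39 it called 36 higher and 1 lower. Tnnt2, the cardiac troponin T gene that immature muscle also uses, had summits 4799 and 6532 bp from its locus, with 42 and 48 tags, and went from 162 to 1981 FPKM. Myh3, the embryonic myosin heavy chain, had 45 tags 3640 bp from its locus and went from 111 to 2362. Des, the intermediate filament desmin, had 47 tags with the summit 57 bp inside its locus and went from 539 to 2785. All 3 had higher calls in the authors' deposited table. The thirteenth, Actn3, the fast-fibre actinin, had 42 tags 27 bp inside the locus end. It was at 169 and 550 FPKM and had no call in the authors' deposited table.

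Of 22 tested genes of excitation-contraction coupling 6 had a tag-rich peak, and the authors' deposited table called 4 of these and 12 of the other 16 higher. Ryr1, the calcium release channel, had 67 tags inside the locus and went from 14.4 to 101 FPKM. Casq2, a calcium-binding protein of the reticulum, had 47 tags inside the locus and went from 41.7 to 777. Cav3, the muscle caveolin, had 41 tags 171 bp inside the locus and went from 29.9 to 561. Cacnb1, a calcium channel subunit in a locus shared by 3 genes, had 83 tags and went from 18.4 to 124. Jph2, at 135 and 191, and Jsrp1, at 62.4 and 181, were not called in the authors' deposited table. Both are proteins of the junction between reticulum and membrane.

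Muscle metabolism had 3 of 18 tested genes with a tag-rich peak, Ak1, Pygm and Mb. Pygm, the muscle glycogen phosphorylase, had 57 tags at its start and went from 111 to 1034 FPKM, called higher in the authors' deposited table. None of the 18 tested genes of the dystrophin complex and sarcolemma had one, although 13 had some MyoD peak and the authors' deposited table called 8 higher and 2 lower. Of 17 fusion genes, 2 had one: Tmem8c, the fusogen myomaker, with 49 tags inside the locus, at 143 and 1913 FPKM, and Cdh15 in the merged locus on chromosome 8.

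Tag-rich peaks were at regulators as well. Of 30 tested entries for myogenic regulators, 6 had one: Myod1, Tead4, Mef2d, Tcf4 and Tead1, which the table lists under 2 identifiers. Tead4, a partner of myogenic factors at muscle enhancers, had 65 and 40 tags inside its locus and went from 15.2 to 113 FPKM, called higher in the authors' deposited table (log2 fold change 2.90, SE 0.38, q = 2.74e-12). Myog, the factor of terminal differentiation, had 1 peak within 10 kb, with 23 tags, and Mef2c had 1 peak below 40 tags. Neither Myf5 nor Myf6 had a MyoD peak within 10 kb. A list of 18 tested antagonists of MyoD and related regulators had 2 with a tag-rich peak, neither with a call in the authors' deposited table. Hes6, a basic helix-loop-helix regulator that is not counted here as an antagonist, had 70 and 55 tags and was at 798 and 645 FPKM. Snai1, an E-box repressor, had 68 tags and was at 21.5 and 14.3.

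Satellite cell markers had a tag-rich peak at 6 of 16 tested genes, and at 3 of the 12 with unshared loci. Cdh15 is counted only through the 4435-kb merged locus. Ncam1, a neural cell adhesion molecule that myotubes also display, had 69 tags in a locus shared by 2 genes and went from 159 to 746 FPKM, called higher in the authors' deposited table. Fgfr1, a growth factor receptor in a locus shared by 2 genes, had 54 tags and went from 202 to 51.2, and the syndecan gene Sdc4 had 41 tags and went from 255 to 85.2. The authors' deposited table called both lower. Fgfr4, Megf10 and Cdh15 had no call in the authors' deposited table.

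The remaining lists ran from 0 of 18 to 3 of 19 (15.8%). Among 30 tested proliferation genes 2 had a tag-rich peak (6.67%), Mcm2 and Ube2c, both called lower, as were the 28 without one, in the authors' deposited table. Ube2c shares its locus, and so its peak, with Tnnc2. Of 18 matrix genes 1 had one, Sparc, at 782 and 840 FPKM. Of 19 genes of cell cycle exit, 2 had one. Cdkn1a, the p21 inhibitor, had 40 tags, the minimum, at 4.67-fold, and Ccnd3, a D-type cyclin, had 59 and 42 tags. Cdkn1a was a higher call in the authors' deposited table. Entries for AP-1 and Runx factors had 3 of 19, Jund and both entries for Runx2, and chromatin cofactors 1 of 18, Smarcd3. All of these lie in shared loci: among entries with unshared loci, 0 of 13 and 0 of 10 had one. Both Runx2 entries are counted through the same peak of 55 tags, in a 623304-bp locus shared by 4 tested genes. None of 18 tested markers of 6 other cell types had one, and 9 had some MyoD peak.

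Among called genes with a tag-rich summit in the locus or within 10 kb, the 12 largest rises ran from 19.6-fold to 47.3-fold. They included Adamtsl2, a secreted matrix protein (0.783 to 33.9 FPKM, 49 tags 9492 bp away), Asb2, a ubiquitin ligase subunit (3.30 to 99.6, 53 tags 3583 bp away), and Chi3l1, Mybph, Actc1 and Myh3. The Adamtsl2 peak is the peak inside Tmem8c. Tnnc2, Myl4, 2310043M15Rik, 2210020M01Rik, Cbfa2t3 and Clic3 made up the 12, and these 6 share their loci with other genes. Cbfa2t3 is counted only because it lies in the 4435-kb locus merged over 70 tested genes, where no peak can be given to a gene. All 12 were higher calls in the authors' deposited table, as the choice required.

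The 12 largest falls were smaller, from 5.91-fold to 9.65-fold. Il34, a cytokine, had 46 tags inside the locus and went from 51.5 to 5.34 FPKM, called lower in the authors' deposited table (log2 fold change -3.27, SE 0.47, q = 2.05e-10). Dlx3, a homeobox factor, had a peak of 50 tags and 36.7-fold enrichment 238 bp from the locus and went from 11.3 to 1.50, and Tox2, an HMG-box factor, had 47 and 40 tags inside the locus and went from 96.2 to 14.9. Ptma, which encodes prothymosin alpha and has many processed copies, had 58 tags 4 bp from its start and went from 1103 to 187. Cpt1c, 4930427A07Rik, Runx2, Gm20485, Map4k2, Fanca, Cyba and Gins2 were the others. Runx2, Gm20485 and Map4k2 share their loci with other genes, and Fanca, Cyba and Gins2 are counted only through that same merged locus of 70 genes. The Map4k2 peak, 57 tags with the summit 6422 bp away, is the peak at the start of Pygm, a gene called higher. All 12 were lower calls in the authors' deposited table, again as chosen.

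Of the 21 genes with a tag-rich summit at the start, the authors' deposited table called 6 higher and 2 lower, beside 6.91% and 17.8% of all tested genes with unshared loci, and no test was run. Higher calls in the authors' deposited table were Chrng, Pygm, Cav3, Tmem109, Adssl1 and Rragd, and lower calls were Ptma and Actg1, the cytoplasmic gamma actin gene. Actg1 had 47 tags 148 bp inside its start and went from 2429 to 656 FPKM, and the same peak lay 284 bp before the start of 0610009L18Rik, at 7.02 and 12.3. The other 13 genes were not called in the authors' deposited table, among them Hes6, Atf4 (261 and 521 FPKM), Srebf2, a factor of sterol synthesis (44.3 and 56.7), and Chrna1.

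The labels of the RNA libraries were set against marker genes. The 5 markers of myotubes summed to 617 FPKM in myoblasts and 12698 in myotubes, and the 3 of myoblasts to 229 and 35.7. The highest sum among other cell types was that of smooth muscle and pericytes, at 303 and 2041, which includes genes that muscle cells also express. Most of that sum was Acta2, at 227 and 2025. The authors' deposited table called Acta2 and Abcc9 (0.546 and 7.75) higher and Rgs5 (73.1 and 7.72) lower. In bulk libraries fewer cells of a type and less RNA per cell cannot be told apart. The part of other cells in the tag-rich peaks was not tested.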

How the data were processed

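MyoD peaks of 1 ChIP library and FPKM of 2 RNA libraries entered. Per the file headers, the authors called peaks with MACS on 8637045 tags (4049890 unique) against 9129012 control tags (4371189 unique), with 36-base tags, band width 150, model fold 16 and a p-value threshold of 1.00e-05; version 1.3.7 and mm9 are in the submitters' processing notes. The sources used here do not give what the control was, nor how duplicates, which the labels mention, were combined. The labels' antibody list names none against MyoD. The tags of a peak are a count made by the caller, per the file headers. The deposited p score is 10 times the -log10 of the p-value, fold enrichment is a ratio to local background, and the false discovery rate is a percent from the authors' caller.

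The authors deposited 1 FPKM value per gene and condition and the p-values and q-values of Cuffdiff (named in the submitters' processing notes), in identical copies of 1 table. Read depth of the RNA libraries is unknown. Standard errors (SE) were computed as the ratio of the deposited log2 fold change to the deposited test score, and recomputed p-values differed from theirs by at most 2.68e-06. Genes with status OK (15966 of 37975) are the tested genes, and 4851 of them (30.4%) share a merged locus with another.

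The nearest gene is the tested gene whose locus lay closest to the summit, or the shortest locus around it. Locus starts were read as counting from 0 and all positions are printed from 1. Genes named are those nearest the 20 peaks with most tags and the 10 with most tags per bp, the 12 largest called rises and falls near a tag-rich peak (larger FPKM at least 10, smaller at least 0.1), genes with 3 or more tag-rich peaks, list members, and starts; peaks ranked by fold, genes noted for having no tag-rich peak, and groups of neighbouring peaks were chosen after their values were seen. The members and lists were chosen with earlier results of these data known. Strands and promoter sequences came from RefSeq (GRCm38.p6), with no coordinates moved between builds. Intervals are exact Clopper-Pearson or Poisson 95% intervals. The join was tested on simulated data. Python 3 with pandas, NumPy and SciPy was used.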

Additional observations from a re-analysis of the deposited data

How the results depend on the processing

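Of 59 alternative values, 38 stayed inside the 95% interval of the reported value, 21 left it and 0 were labelled as reversed. The median log2 ratio, 0.01 as reported, had an interval that spans 0 (-0.14 to 0.10), and its sign did change. The ratio was -0.06 with 100 tags and with most tags per bp, -0.02 with unshared loci or no low-value filter, and above 0 otherwise. For the peaks with most tags per bp, lower calls (15.8%) outnumbered higher ones (14.2%), against 13.4% and 15.9% as reported. With a minimum of 60 tags the median width was 1129 bp, the density 0.0602 tags per bp, the share inside a locus 53.2% and the nearest genes called lower 10.7%, and with 100 tags (9 peaks) 2690 bp, 0.0586, 77.8% inside and 88.9% within 10 kb. A false discovery rate of at most 5% gave 846 bp and 0.0572. The 564 peaks with most tags per bp had 405.5 bp, 0.0718, 50.5% inside and 63.8% within 10 kb, the last below the 66.6% of peaks with fewer than 40 tags. Using all genes of the table gave 64.7% and 83.0%, loci of at most 200 kb 48.4% and 65.6%, and a distance of 50 kb 88.7%. Centred fold changes gave 22.4% higher and 9.38% lower. The wider or narrower loci and distances move these shares by construction, and for the other values the cause was not tested. Alternatives chosen after seeing the data, without the largest merged locus or without the 23 members under 400 bp or under 6-fold (541 left), stayed inside the interval for each value they gave. No paired analysis was possible because each condition had 1 library, which also left no replicate to leave out. Counting error limits single peaks near 40 tags, and the RNA depth is unknown.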
